A study of Mus musculus with 4 samples.

Results

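High mobility group (HMG) proteins and the Hmga2 pseudogene are described here in group 2 innate lymphoid cells (ILC2s) sorted from mouse colon. The 8 genes are Hmga1, Hmga2, Hmga2-ps1, Hmgb1, Hmgb2, Hmgb3, Hmgn1 and Hmgn2, taken by name out of 27179 rows of the deposited table of read counts. Hmga2-ps1 is a transcribed pseudogene of Hmga2, and the set was chosen by its measured counts, because it was called in the comparison of diets. Its diet difference is therefore a description, and the adjusted p-values printed for it show only how far that choice depended on single libraries and settings. RNA was sequenced from ILC2s of C57BL/6J mice, 2 on a high-fiber diet and 2 on a control diet, with 1 mouse behind each library. The labels give no age, no sort gates and no duration or kind of fiber, and no genetic change is named for any group. In bulk RNA of this kind, fewer cells of a type and less RNA per cell cannot be told apart.

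HMG proteins are abundant non-histone proteins of chromatin that bend or loosen DNA packing. HMGA proteins hold short AT-hook motifs that bind the minor groove of AT-rich DNA, HMGB proteins bend DNA through HMG boxes, and HMGN proteins bind the nucleosome itself. Hmga2 is used mainly in embryonic and dividing progenitor cells and is silent in most adult tissues, where let-7 microRNAs repress its message. HMGB1 also acts outside the cell as an alarmin that is released from damaged cells, and it is an inflammatory signal at mucosal surfaces such as the gut.

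Because reads of a pseudogene and its parent can be confused, their sequences come first. In the GRCm38 assembly Hmga2-ps1 (NCBI gene 15365) spans 1510 bases of chromosome 1, from 176834624 to 176836133, and Hmga2 (NCBI gene 15364) lies on chromosome 10 from 120361268 to 120476469. GENCODE annotates, under the name Gm38158, a copy of the Hmga2 coding sequence on the plus strand from 176835724 to 176836062, inside that span. The copy has 339 bases and the Hmga2 coding sequence 327. The opening stretches of both are shown from 5′ to 3′, with capitals at every base that is substituted or inserted. The pseudogene stretch is chr1:176835724-176835975 on the plus strand of GRCm38. The parent stretch is the start of the spliced coding sequence, from the start codon, of the Hmga2 transcript of 3710 bases, on the minus strand of chromosome 10. Both come from the GENCODE M21 transcripts.
Hmga2-ps1: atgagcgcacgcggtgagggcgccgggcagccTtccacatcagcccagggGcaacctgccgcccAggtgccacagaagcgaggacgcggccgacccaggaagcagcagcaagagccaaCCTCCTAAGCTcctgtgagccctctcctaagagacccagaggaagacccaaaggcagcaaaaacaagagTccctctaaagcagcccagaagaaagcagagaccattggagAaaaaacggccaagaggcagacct
Hmga2: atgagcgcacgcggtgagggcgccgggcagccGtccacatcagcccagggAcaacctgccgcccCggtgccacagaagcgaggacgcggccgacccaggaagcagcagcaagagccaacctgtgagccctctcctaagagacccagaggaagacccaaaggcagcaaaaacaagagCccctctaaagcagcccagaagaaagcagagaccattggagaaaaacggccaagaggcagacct

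The copy and the parent were identical at 322 of 339 aligned positions. The 5 substitutions were G33T, A51G, C65A, C177T and G303C, counted from 1 at the A of the Hmga2 start codon, with the Hmga2 base before the position and the pseudogene base after it. The last of them lies beyond the stretch shown. The copy also held 2 insertions, one of 11 bases after parent base 118 and one of 1 base after parent base 217. Read from the start codon, the copy met its earliest in-frame stop at codon 42, inside the longer insertion, while the parent frame ran to a stop at codon 109. Of 290 windows of 50 bases in the copy, 52 (17.9%) also occurred in an Hmga2 transcript and none in any other gene's transcript. The other 1100 bases of the RefSeq span before the copy and 71 bases after it were not analysed here for sequence.

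The libraries held 29263068 and 20750263 counts in high-fiber mice and 30406730 and 20253987 counts in control mice. At these depths 3 counts correspond to 0.0993 to 0.147 CPM, which are counts per 1e6 of the scaled library. That is the level a count of 0 still allows. Markers of ILC2s were abundant, with a summed level of 18881 and 18127 CPM in high-fiber mice and 16845 and 14446 CPM in control mice over 12 genes, among them the lineage factor Gata3 and the IL-33 receptor gene Il1rl1. Markers of B and plasma cells summed to 759.8 and 1774 CPM in high-fiber mice against 637.4 and 654.5 CPM in control mice over 8 genes. Ighm was at 418 and 548 CPM in high-fiber mice and 482 and 615 CPM in control mice. Igkc was at 112 and 458 against 37.4 and 4.15 CPM, Igha at 101 and 424 against 60.4 and 3.29 CPM. Jchain was at 88.0 and 286 against 33.4 and 4.05 CPM. Of the 8 genes 6 were tested, 5 higher and 1 (Ighm) lower, with a median log2 fold change of 2.32. With edgeR 0 passed and 4 were higher at an unadjusted p under 0.05. Of all tested genes 4.7% were higher and 4.1% lower at that p. The part of B and plasma cells in the results was not tested. Over 9 T cell genes the sums were 292 and 352 CPM in high-fiber mice and 211 and 236 CPM in control mice, with Cd8a at 0 counts in every library. The larger part of each sum was Cd3g, at 244 and 289 CPM in high-fiber mice and 143 and 171 CPM in control mice. Of the 6 T cell genes tested, 4 had a lower level in high-fiber mice, with a median log2 fold change of -0.69. None passed with edgeR, 1 was higher (Cd3g) and 1 lower (Themis) at an unadjusted p under 0.05. Themis was called by DESeq2 (-2.83 ± 0.71, edgeR adjusted p = 0.447, DESeq2 adjusted p = 0.0160). Markers of macrophages and dendritic cells summed to 310.5 and 340.9 CPM in high-fiber mice against 130.5 and 268.3 CPM in control mice, with Itgax at 0 counts throughout. The larger part of each of these sums was Apoe, at 202 and 192 against 85.2 and 154 CPM. Of the 7 tested, 6 were higher and 1 was lower, with a median log2 fold change of 0.40. With edgeR 0 had an unadjusted p under 0.05, against 8.8% of all tested genes. Of 7 ILC3 markers, 3 (Il22, Il23r and Ccr6) were at 0 counts in all 4 libraries, as were 5 of 8 epithelial markers.

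Hmga2-ps1 RNA was abundant in high-fiber mice and low in control mice, while its parent was close to absent in both. Hmga2-ps1 held 3101 and 2158 counts in the high-fiber libraries, against 277 and 195 counts in the control libraries. In CPM these were 107 and 106 in high-fiber mice and 9.17 and 9.29 in control mice, with means of 107 ± 1.07 and 9.23 ± 0.0844 CPM (SD, n = 2 each). The groups stood far apart, and mice of the same diet differed by less than their counting error. The 95% counting intervals were 103.7 to 111.3 and 101.5 to 110.5 CPM in high-fiber mice and 8.12 to 10.3 and 8.03 to 10.7 CPM in control mice. These exact Poisson intervals cover counting error only and leave out variation between mice. They also take every read as independent, which copies made by PCR are not. The log2 fold change, high-fiber over control, was 3.53 ± 0.32 (SE), an 11.6-fold difference.

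**Figure D1:**
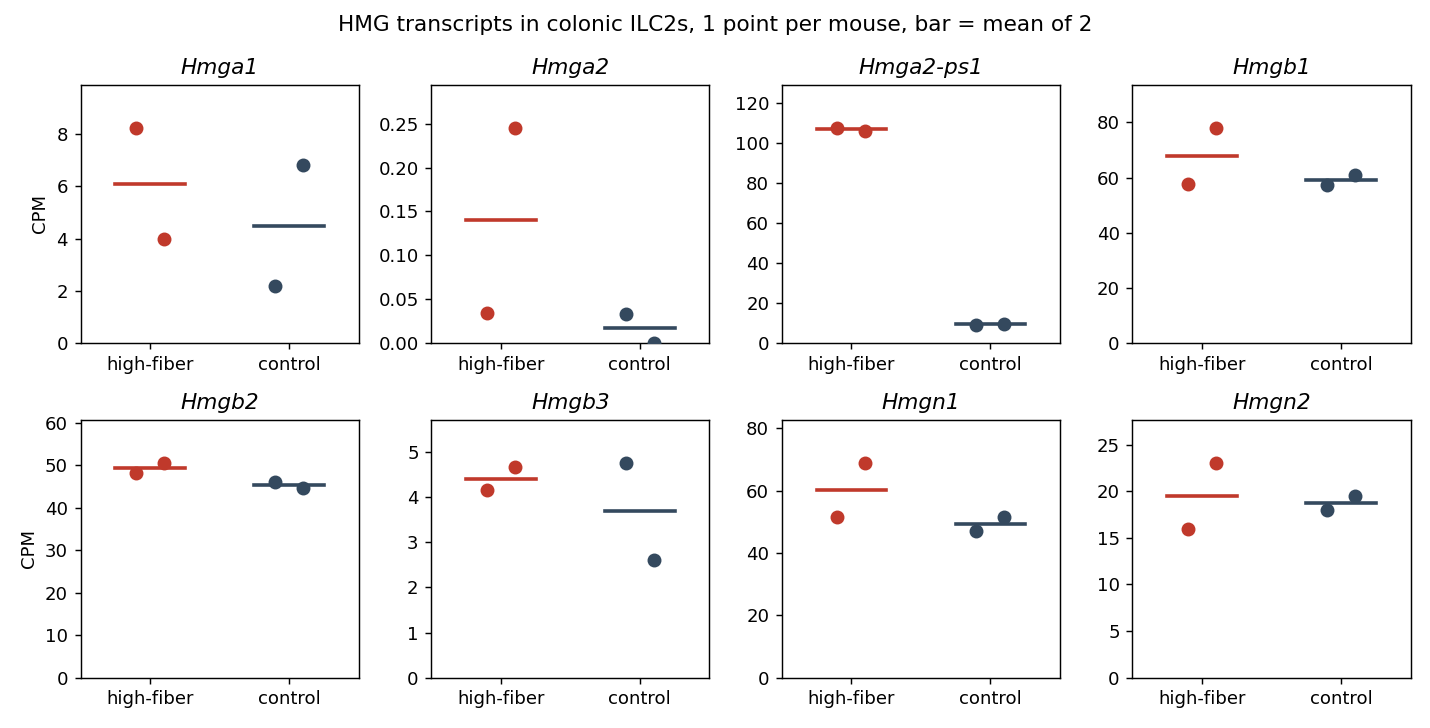
Level of each HMG transcript in CPM (vertical axis, from 0, scaled per gene) in the high-fiber and control libraries, with 1 point per mouse and a bar at the mean of 2. Hmga2-ps1 sits at 107 and 106 CPM in high-fiber mice and 9.17 and 9.29 CPM in control mice, while the points of the other genes lie close together or overlap between diets, and Hmga2 stays below 0.25 CPM.

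Hmga2 itself had 1 and 5 counts in high-fiber mice and 1 and 0 counts in control mice. In CPM these were 0.0346 and 0.245 in high-fiber mice and 0.0331 and 0 in control mice, so the lower high-fiber mouse and the higher control mouse had the same count and nearly the same level. All values lay at or near the limit that a count of 0 allows, and the gene was too low to enter the test. Summed per diet these are 6 counts against 1, a scaled ratio of 6.24 with an exact 95% counting interval of 0.757 to 287, so no difference was detectable at this depth. Of all counts on pseudogene and parent, Hmga2-ps1 therefore held nearly everything in each mouse. Its share was 99.97% (exact Clopper-Pearson 95% interval 99.82 to 99.999%) and 99.8% (99.5 to 99.9%) in high-fiber mice. On the control diet it was 99.6% (98.0 to 99.99%) and 100% (98.1 to 100%). The shares of the diets overlapped. How the authors counted reads that match both places was not stated in the labels or files, so the 52 shared windows could have moved reads either way.

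Hmga2-ps1 lies inside an intron of Sdccag8, a gene for a centrosomal protein, which is read from the same strand as the GENCODE copy. That intron runs from 176831183 to 176840284 on chromosome 1, with 3441 bases between the exon before it and the pseudogene and 4151 bases between the pseudogene and the next exon. Sdccag8 was at 82.5 and 76.5 CPM in high-fiber mice and 70.1 and 74.8 CPM in control mice. Its groups did not overlap, with high-fiber above control, as for 18.5% of all tested genes. Its diet difference was 0.14 ± 0.25 on the log2 scale (95% interval -0.46 to 0.73, edgeR adjusted p = 0.929), and it did not pass the test. Counts of Hmga2-ps1 per count of its host gene were 1.30 and 1.39 in high-fiber mice against 0.131 and 0.124 in control mice. This ratio does not depend on library size, and its means were 1.34 ± 0.0585 and 0.128 ± 0.00468 (SD, n = 2 each). Unspliced Sdccag8 RNA across this intron and RNA of the pseudogene itself cannot be told apart from gene counts.

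Cep170, a gene for a centrosomal protein, lies at lower coordinates, 20644 bases away from the pseudogene. Cep170 was at 52.6 and 51.0 CPM in high-fiber mice and 16.1 and 32.4 CPM in control mice. The groups did not overlap, and the log2 fold change of 1.14 ± 0.41 did not pass (edgeR adjusted p = 0.495). The neighbouring microRNA gene Mir350 held 1 count in all. Around Hmga2, all 3 overlapping genes with a row were at 0 counts in every library.

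**Figure D2:**
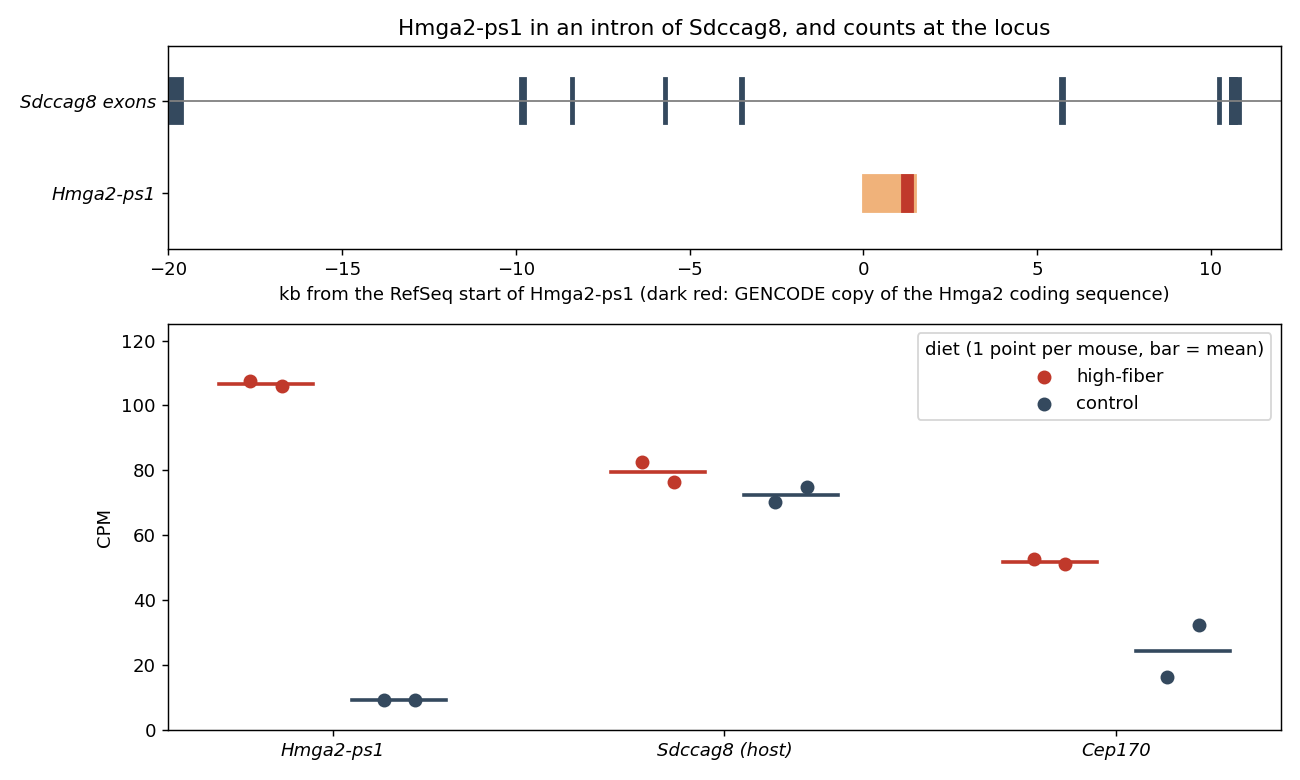
Top, Sdccag8 exons (boxes) and the Hmga2-ps1 span (light) with the copy of the Hmga2 coding sequence (dark), by distance in kb from the RefSeq start of Hmga2-ps1. Bottom, CPM of Hmga2-ps1, its host Sdccag8 and the flanking gene Cep170, with 1 point per mouse and a bar at the mean of 2. For each gene shown both high-fiber mice lie above both control mice. The diets lie far apart for Hmga2-ps1, while Sdccag8 lies between 70.1 and 82.5 CPM in all 4 mice.

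Across the whole table, edgeR's quasi-likelihood test called 4 of 11841 tested genes at an adjusted p under 0.05, which is 0.0338%, and all 4 were higher in high-fiber mice. Of the 8 HMG genes 7 entered the test and 1 was called, Hmga2-ps1, the gene the set was built around, so nothing is read from that count. Its call ended when any library was left out, with adjusted p = 0.201 without high-fiber library 1, 0.387 without high-fiber library 2, 0.390 without control library 1 and 0.503 without control library 2, in edgeR fits that left 1 mouse in a diet and assume it varied like the others. The log2 fold change moved only between 3.52 and 3.55 in these fits. DESeq2 called 1.97% of the tested genes, and of the HMG genes 1, Hmga2-ps1, from which nothing is read either.

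None of the other 6 tested genes passed with edgeR, 0 had an unadjusted p under 0.05, and with DESeq2 their adjusted p was 0.999. All are protein-coding, and their places are given on GRCm38. Hmga1, the AT-hook protein of dividing and activated cells (chromosome 17, 27556574 to 27563672), was at 8.24 and 3.98 CPM in high-fiber mice and 2.19 and 6.81 CPM in control mice. Its values were scattered within each diet by more than between them, and the counting intervals of the mice within a diet did not overlap (7.23 to 9.36 against 3.16 to 4.94 CPM in high-fiber mice). The log2 fold change was 0.62 ± 0.82 (95% interval -1.36 to 2.59, edgeR adjusted p = 0.903), and its sign turned when control library 1 or high-fiber library 1 was left out (-0.10 and -0.034).

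Hmgb1, the most widely used HMG-box protein and an alarmin (chromosome 5, 149046702 to 149053057), was at 57.8 and 78.0 CPM in high-fiber mice and 57.4 and 61.1 CPM in control mice. The diets overlapped, and high-fiber library 2 alone stood above the other 3. The log2 fold change was 0.19 ± 0.28 (95% interval -0.49 to 0.87, edgeR adjusted p = 0.911). Leaving out high-fiber library 2 turned the sign (-0.039). Hmgb2, a close relative that is most abundant in lymphoid and dividing cells (chromosome 8, 57511843 to 57515999), was at 48.1 and 50.6 CPM in high-fiber mice and 46.2 and 44.8 CPM in control mice. Here the groups did not overlap, but they lay close, at 0.12 ± 0.28 on the log2 scale (95% interval -0.56 to 0.79, edgeR adjusted p = 0.951). Groups that do not overlap, with high-fiber above control, were seen for 18.5% of all tested genes (19.6% with high-fiber below, 38.2% either way). Among the 7 tested HMG genes they were seen for Hmgb2 and for Hmga2-ps1, the gene chosen for it. Hmgb3, a member linked to blood progenitor cells (chromosome X, 71555917 to 71560673), was at 4.16 and 4.66 CPM in high-fiber mice and 4.77 and 2.62 CPM in control mice. These overlapped, at 0.18 ± 0.73 (95% interval -1.56 to 1.93, edgeR adjusted p = 0.972), and without control library 2 the sign turned (-0.12).

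Hmgn1, a nucleosome-binding protein that also acts as an alarmin (chromosome 16, 96121588 to 96127725), was at 51.5 and 69.0 CPM in high-fiber mice and 47.0 and 51.5 CPM in control mice. High-fiber library 1 and control library 2 coincided, and high-fiber library 2 stood above them. The log2 fold change was 0.29 ± 0.30 (95% interval -0.42 to 0.99, edgeR adjusted p = 0.856). Hmgn2, its close relative (chromosome 4, 133964739 to 133967991), was at 15.97 and 23.1 CPM in high-fiber mice, on either side of the 18.0 and 19.5 CPM in control mice. Its log2 fold change of 0.040 ± 0.43 (95% interval -0.998 to 1.08, edgeR adjusted p = 0.991) was -0.0014 without scaling factors, -0.23 without high-fiber library 2 and -0.016 without control library 1. For Hmgb1, Hmgn1 and Hmgn2 alike, high-fiber library 2 was highest and control library 2 stood above control library 1. For each of these 6 genes the interval of the difference holds 0, yet none of the intervals excludes a change of 1.5-fold upward, so a rise of that size lies within the error.

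**Figure D3:**
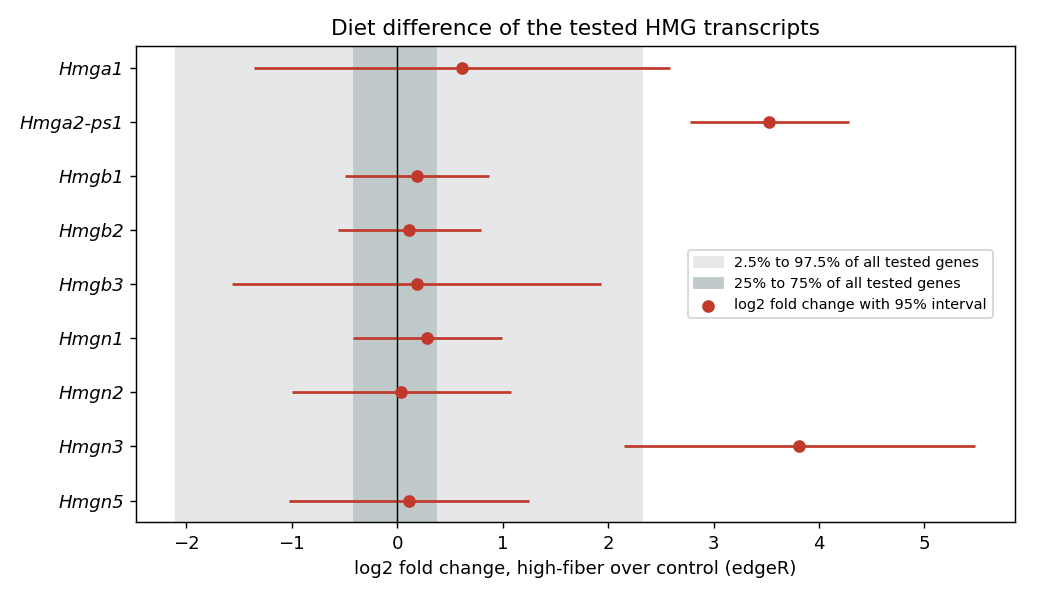
Log2 fold change (high-fiber over control, horizontal axis) of the 7 tested HMG genes and of Hmgn3 and Hmgn5, with 95% intervals from edgeR, over bands that hold the central 95% and 50% of all tested genes. The intervals of Hmga1, Hmgb1, Hmgb2, Hmgb3, Hmgn1, Hmgn2 and Hmgn5 hold 0, while Hmga2-ps1 lies at 3.53 and Hmgn3 at 3.81.

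Levels of different genes were set side by side as CPM per kb of exon, taking for Hmga2-ps1 the full RefSeq span as its length. On the high-fiber diet the order was Hmga2-ps1 (70.6 ± 0.707), Hmgn1 (18.7 ± 3.85), Hmgb2 (16.4 ± 0.588), Hmgb1 (13.5 ± 2.85), Hmgn2 (6.38 ± 1.64), Hmga1 (2.88 ± 1.42), Hmgb3 (1.97 ± 0.160) and Hmga2 (0.0207 ± 0.0220), all in CPM per kb as mean ± SD of 2 mice. Hmgn1 and Hmgb2 overlapped between mice, as did Hmga1 and Hmgb3, whereas Hmgb2 stood above Hmgb1 in both. On the control diet the order was the same except that Hmga2-ps1, at 6.11 ± 0.0559 CPM per kb, came just after Hmgn2 at 6.13 ± 0.360 CPM per kb, and these overlapped between mice. With the longest transcript as the length in place of all exons, Hmgb1 and Hmgb2 exchanged places and the others kept theirs. In control mice, however, Hmgn2 was then at 14.8 ± 0.870 CPM per kb, well above Hmga2-ps1 at 6.11 ± 0.0559 CPM per kb, so their overlap holds for the length over all exons only. Hmga2-ps1 had the highest level per length of the set in high-fiber mice with either length of the other genes. Its own length was 1510 bases in both cases, and no other was tried.

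**Figure D4:**
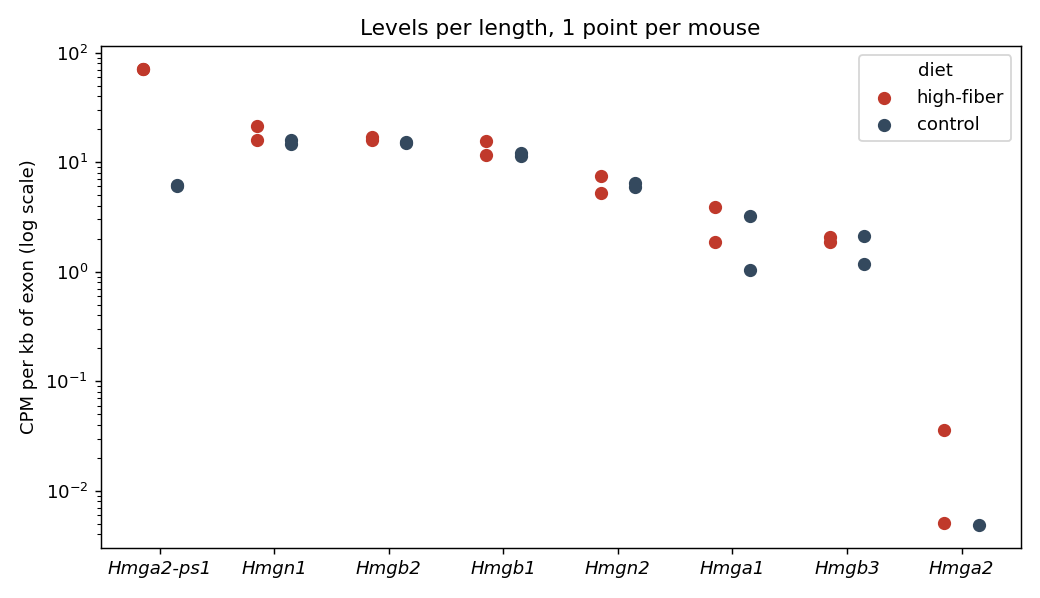
CPM per kb of exon (vertical log axis) of the 8 HMG genes, ordered by their mean in high-fiber mice, with 1 point per mouse. The high-fiber points of Hmga2-ps1 lie at 71.1 and 70.1 CPM per kb and the control points at 6.07 and 6.15 CPM per kb, and a library at 0 (Hmga2, control library 2) cannot be drawn.

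HMG genes have left many processed copies in the mouse genome, and the members differed in how much exact sequence they share with other genes. Of all windows of 50 bases in the longest coding transcript, 69.1% were shared for Hmga1, 67.1% for Hmgn2, 40.9% for Hmgb1, 34.2% for Hmgb3, 21.9% for Hmgb2, 6.54% for Hmgn1 and 4.36% for Hmga2. Hmgb1 windows occurred in 132 other annotated genes, Hmgn2 windows in 18 and Hmgb3 windows in 14. All 1349 shared windows of Hmga1 occurred in Hmga1b, which held 5 and 1 counts in high-fiber mice and 2 and 4 counts in control mice. For Hmgb1 the nearest copy with a row, Gm21596, matched 36.4% of the windows and held 1 count over all libraries. For Hmgn2 the nearest with a row, Gm6750, matched 13.9% and held 2. Few reads were thus counted on Hmga1b, Gm21596 and Gm6750. By name, a row existed for 8 of the 132 genes sharing Hmgb1 windows, 3 of 18 for Hmgn2 and 0 of 14 for Hmgb3. Gm10282, matching 67.1% of the Hmgn2 windows, had none. Some protein-coding genes that share few windows held many counts. AI413582, with 48 windows of Hmga1, held 1456 and 1735 counts in high-fiber mice and 1643 and 1409 counts in control mice. Tmx3, with 9 windows of Hmgb2, held 4031 and 3851 against 2765 and 2072 counts. Whether reads matching several places were dropped or kept was not stated in the labels or files either. The part of such reads in the levels was not tested.

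**Figure D5:**
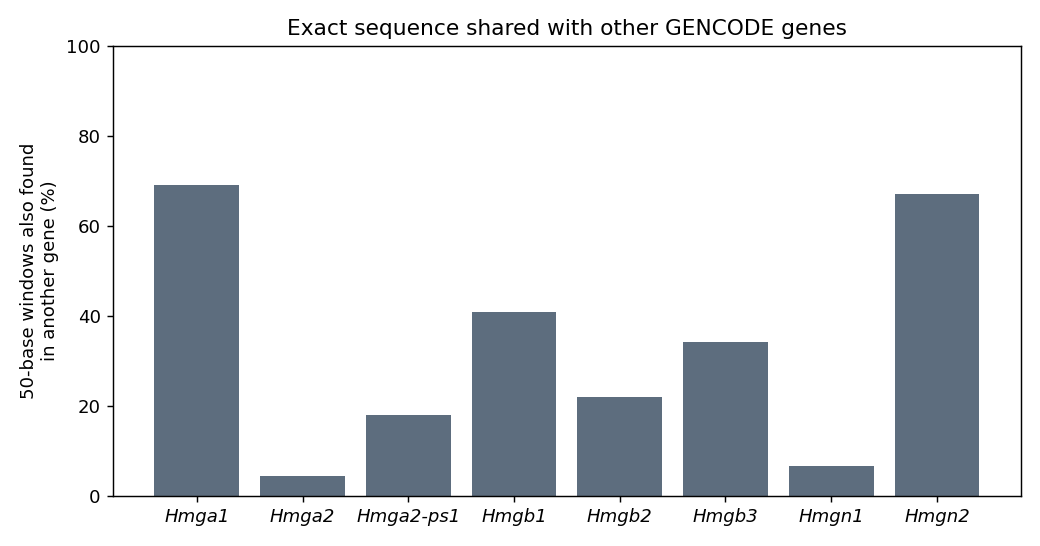
Share of the 50-base windows of each HMG transcript that also occur, on either strand, in a transcript of another GENCODE gene (vertical axis, percent). The bars reach 69.1% for Hmga1 and 67.1% for Hmgn2, against 17.9% for the Hmga2-ps1 copy and 4.36% for Hmga2.

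Of 4 other HMGA, HMGB and HMGN genes 2 were tested and 0 passed with edgeR. Of these 1, Hmgn3, was higher at an unadjusted p under 0.05, as were 4.7% of all tested genes. It was also called by DESeq2, as were 1.97% of all tested genes. Hmgn3, a nucleosome-binding relative of Hmgn1 (chromosome 9, 83109942 to 83147358), was at 26.7 and 59.9 CPM in high-fiber mice and 4.01 and 1.67 CPM in control mice. Both high-fiber mice stood above both control mice. The log2 fold change was 3.81 ± 0.69 (95% interval 2.15 to 5.48), with an edgeR adjusted p = 0.358 and a DESeq2 adjusted p = 2.39e-06. Only 3.80% of its windows were shared with another gene. Hmgn5, its relative on the X chromosome, was at 22.7 and 37.0 CPM in high-fiber mice and 18.8 and 36.9 CPM in control mice (0.11 ± 0.48, edgeR adjusted p = 0.972). Its sign turned without control library 1 (-0.32) and without high-fiber library 2 (-0.26). Hmga1b was too low for the test, and Hmgb4, a gene of the testis, was at 0 counts in every library.

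Of 33 further genes whose proteins hold an HMG box, 23 were tested and 0 passed edgeR's test, although an unadjusted p under 0.05 was reached by 2 that were higher and 1 that was lower. Of all tested genes 4.7% reached it as higher and 4.1% as lower, 8.8% together. The median log2 fold change was 0.14, against -0.016 over all tested genes. DESeq2 called 2 of the 23, against 1.97% of all tested genes. Tox2, a transcription factor of activated lymphocytes, was at 54.9 and 13.3 CPM in high-fiber mice and 0.0331 and 2.19 CPM in control mice (5.24 ± 1.19, edgeR adjusted p = 0.447, DESeq2 adjusted p = 0.00726). Wdhd1, a replication factor, was at 1.801 and 2.45 CPM in high-fiber mice and 20.8 and 11.96 CPM in control mice (-3.01 ± 0.73, edgeR adjusted p = 0.447, DESeq2 adjusted p = 0.00947).

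Linker histones compete with HMG proteins for the nucleosome. Of 7 in the list 5 were tested and 0 passed with edgeR. With edgeR 1 was higher at an unadjusted p under 0.05, against 4.7% of all tested genes. DESeq2 called the same gene, and 1.97% of all tested genes. The median log2 fold change of the 5 was 0.996. H1f0, the linker histone of resting and differentiated cells, was at 79.5 and 146 CPM in high-fiber mice and 35.9 and 27.6 CPM in control mice (1.81 ± 0.38, edgeR adjusted p = 0.447, DESeq2 adjusted p = 0.00149). H1f3 was next by p, at 1.005 and 2.26 CPM in high-fiber mice and 1.09 and 0.286 CPM in control mice (1.01 ± 0.99, edgeR adjusted p = 0.839). H1f2 was at 84.3 and 66.7 CPM in high-fiber mice and 76.3 and 69.5 CPM in control mice, and these overlapped.

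Of 12 receptors and partners of HMGB1, 8 were tested and 0 passed with edgeR or DESeq2. At an unadjusted p under 0.05 edgeR placed 0 of them higher and 1 lower, against 4.7% and 4.1% of all tested genes. The median log2 fold change of the 8 was -0.043. The smallest p belonged to Myd88, the adaptor of Toll-like receptors, at 108 and 79.3 CPM in high-fiber mice and 175 and 141 CPM in control mice (-0.75 ± 0.27, edgeR adjusted p = 0.496). Sirt1, a deacetylase, followed at 11.4 and 9.62 CPM in high-fiber mice and 19.1 and 27.7 CPM in control mice (-1.12 ± 0.47, edgeR adjusted p = 0.571).

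Of 17 genes of let-7 processing and Hmga2 control in the table, 10 were tested and 0 passed with edgeR or DESeq2. With edgeR 0 lay at an unadjusted p under 0.05, against 8.8% of all tested genes. The median log2 fold change of the 10 was 0.31. Lin28a, which blocks let-7 maturation, had 0 counts in every library, and its relative Lin28b had 1 count in high-fiber library 1 and 0 elsewhere. Tut7, a terminal uridylyltransferase, was at 65.8 and 51.2 CPM in high-fiber mice and 79.7 and 83.4 CPM in control mice (-0.47 ± 0.27, edgeR adjusted p = 0.707). Ago2, the slicing Argonaute, was at 78.4 and 63.1 CPM in high-fiber mice and 60.1 and 29.2 CPM in control mice (0.64 ± 0.39, edgeR adjusted p = 0.726). Mature let-7 is not measured by these libraries.

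HMG transcripts such as Hmgb2 and Hmgn2 are known to be high in dividing cells. Of 31 cell cycle and replication genes with a row, 25 were tested and 0 passed with edgeR. With edgeR 3 were higher and 1 was lower at an unadjusted p under 0.05, against 4.7% and 4.1% of all tested genes. The median log2 fold change of the 25 was -0.13. Mki67, a marker of dividing cells, was at 0.173 and 15.6 CPM in high-fiber mice and 0.132 and 2.19 CPM in control mice, so high-fiber library 2 stood highest. Top2a, a topoisomerase of dividing cells, was at 14.0 and 10.6 CPM in high-fiber mice and 8.08 and 12.01 CPM in control mice, and these overlapped. DESeq2 called 2 of the 25, Ccnb2 and Tyms, against 1.97% of all tested genes. Ccnb2, a mitotic cyclin, was at 7.20 and 10.1 CPM in high-fiber mice and 0.199 and 0 CPM in control mice (edgeR adjusted p = 0.447, DESeq2 adjusted p = 0.000805). Tyms, thymidylate synthase, was at 49.0 and 52.6 CPM in high-fiber mice and 21.3 and 13.0 CPM in control mice (1.53 ± 0.37, edgeR adjusted p = 0.447, DESeq2 adjusted p = 0.0299). Summed over the 31 genes, the levels were 592 and 581 CPM in high-fiber mice and 632 and 660 CPM in control mice. By that sum high-fiber library 2 was the lowest, unlike for Mki67. High-fiber library 2 was the highest of the 4 for Hmgb1, Hmgb2, Hmgn1 and Hmgn2, and the part of dividing cells in their levels was not tested.

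Likeness between genes was measured as the Euclidean distance between centred log2 CPM values over the 4 libraries, with a prior count of 2. The 5 genes nearest to Hmga2-ps1 were Snx22, Fgf16, Gm16796, Hsd17b14 and 1700097N02Rik, at distances of 0.058 to 0.34. All 5 had 0 CPM in the control libraries and at most 1.08 CPM in the high-fiber libraries, so their profiles rest on few counts and on the prior count. The nearest to Hmgb1 were Zdhhc20 and Sod2, to Hmgb2 Gnb1l and Exoc6b, to Hmgb3 Klhl22, to Hmgn1 Dpm1 and Rer1, to Hmgn2 Chordc1 and Macf1, and to Hmga1 Pfkfb3 and Ap1g1.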

How the data were processed

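RNA of the sorted cells was made into libraries with a SMARTer V4 kit for very small inputs, per the labels' protocols. The submitters' processing notes name CASAVA 1.8.2, STAR 2.3.0 and mm10 without roles. The program and strand setting used for counting were not given in the sources used here. The deposited values are whole-number read counts per NCBI gene, not normalized, and 0 value columns lacked a sample.

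Symbols and coordinates came from RefSeq GRCm38.p6 (25275 of 27179 identifiers matched) and exons and transcripts from GENCODE M21, both on the assembly of mm10. The test was run with edgeR 4.0.16 under R 4.3.3: filterByExpr (11841 of 15425 genes with any count), TMM, glmQLFit with legacy=FALSE, glmQLFTest on diet, and Benjamini-Hochberg adjustment over all tested genes at 0.05. Fold changes are high-fiber over control, and SE comes from the fold change and its F statistic. CPM uses TMM-scaled library sizes. Pseudogene and parent were aligned with Biopython 1.88. Windows of 50 bases were searched on both strands. The test was checked on simulated data.

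Alternatives were RLE, upper-quartile or no scaling, no filter, a floor of 5 CPM reached by 2 libraries or more, limma-voom (limma 3.58.1), DESeq2 1.42.0, legacy=TRUE, a replicate block, each library left out, pseudogene and parent summed, and another length. They were extended to Hmgn3, Hmgn5, Sdccag8 and Cep170 after seeing the data. The HMG genes, the lists and the rule for named genes (all members, neighbours, nearest profiles, 2 genes per list by p, Mki67 and Top2a) were chosen with earlier results of these data known. Other examples, such as H1f2, Lin28a and Lin28b, were picked after their values were seen. Of the genes that rule names, 2 are not reported here.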

Additional observations from a re-analysis of the deposited data

How the results depend on the processing

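Over all genes edgeR called 4, and 5 with RLE factors, 6 with upper-quartile factors and 5 with no scaling factors. It called 0 with no filter on low counts, 9 with a floor of 5 CPM (which Hmgb3 did not pass), 0 with limma-voom, 0 with legacy=TRUE and 0 to 1 without 1 library, while DESeq2 called 233. At an unadjusted p under 0.05 there were 1042 genes with edgeR, 925 with no filter, 813 with limma-voom and 838 with legacy=TRUE, and 1074 with a replicate block. Of the HMG genes 1 was called, Hmga2-ps1, and 0 with no filter, limma-voom, legacy=TRUE or without any 1 library (0 to 0). Its adjusted p was 0.0950 with no filter, 0.233 with limma-voom and 0.0813 with legacy=TRUE. Since the set was chosen on this call in the same counts, settings that keep it lend it no support. Its log2 fold change lay between 3.49 and 3.55 under all settings run. List members called were 0 of 73 tested, and 6 of 73 with DESeq2, which called 1.97% of all tested genes. Signs turned for genes that were never called. Over the fits without 1 library, log2 fold changes ran from -0.10 to 1.53 for Hmga1, -0.039 to 0.43 for Hmgb1, -0.12 to 0.74 for Hmgb3, -0.23 to 0.33 for Hmgn2 and -0.32 to 0.65 for Hmgn5, and Hmgn2 was at -0.0014 without scaling factors. Hmgb2 (0.076 to 0.18), Hmgn1 (0.062 to 0.52) and Hmgn3 (3.14 to 4.68) kept their sign in those fits. The cause of these shifts was not tested.

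With the replicate number as a block, edgeR called 0 genes at an adjusted p under 0.05 and 0 HMG genes, with an adjusted p = 0.513 and a log2 fold change of 3.53 for Hmga2-ps1. Nothing in the labels says that a number pairs mice, and deviations of same-numbered libraries correlated at 0.041 across 11841 genes. Library depth did go with the number, at 29263068 and 30406730 counts for number 1 and 20750263 and 20253987 counts for number 2. With 2 mice per diet, depth limits Hmga2 most, where 0 to 5 counts per library allow no comparison.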
